A study of Mus musculus with 4 samples.

Results

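Collagen chain genes encode the alpha chains from which collagens are built. The members were chosen by their symbol (Col, a type number, the letter a and a chain number), which gave 44 genes among the 17778 genes of the table. All 44 had a value above 0 in both groups, and 31 of them reached a mean of 0.5 RPKM (reads scaled to gene length and to library size, and thus a level per gene length) in control or in CUMS mice. The other 13 were below this level in both groups. Genes of proteins that hold a collagen helix under another name, such as the complement C1q chains, were not members.

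In a collagen, alpha chains wind around one another into a long helix, and the helices then join into fibrils, networks or filaments outside the cell. Type I, III and V chains form the fibrils of meninges and vessel walls, type IV chains form the sheet of basement membranes, type VI chains form beaded filaments beside them, and further chains sit on fibrils or span the cell membrane. Brain tissue is poor in fibrillar collagen, and its best known collagen sites are the vascular basement membrane and the pia with its fibroblasts. Some chains, such as the membrane-spanning chain of Col25a1, are made by neurons.

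The mRNAs came from the mPFC (medial prefrontal cortex, at the front of the neocortex) of male mice. Their strain was C57BL/6 (C57BL/6J in the methods of the study). They were juvenile when the study began. Tissue was taken later, after adaptation, weeks of stress or control housing, and behavioral tests. The CUMS group (2 libraries) had gone through chronic unpredictable mild stress, a schedule of changing mild stressors such as isolation, restraint and disturbed light cycles, and only mice that showed depression-like behavior in every test were taken. The control group (2 libraries) was of the same strain and was kept without these stressors. Dissected tissue from both hemispheres was used, so that neurons, glia, vessels and any attached meninges were measured together. RNA was isolated from each mouse, and whether a library then held 1 mouse or a pool is not stated.

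The table gave 1 mean RPKM per gene and group and no value of a single library. Therefore, the variation from mouse to mouse is unknown here, no test was possible, and the words higher and lower compare 2 means. The depth was estimated from the smallest steps between low values at 8264463 fragments for a control library and 8361204 for a CUMS library. Each log2 ratio below is log2 of CUMS mean divided by control mean, and its 95% interval (exact, Clopper-Pearson) comes from the estimated fragments of both libraries of a group and covers counting error only. The mRNAs of the collagen chain genes are long (median 5876 bases, against 2654 bases over all genes), which gives them more fragments at the same RPKM. Excitatory neuron genes of cortex were high in both groups, with Slc17a7 (the vesicular glutamate transporter of cortex) at 635 RPKM in control and 791 RPKM in CUMS. This fits cortex but does not show which cortical area was taken. Markers of neighboring regions, given at the end, differed between the groups. That list was assembled with its lower values known, so that its direction follows from the choice of genes.

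Promoter windows of the chains that carry the main patterns are shown here, from 250 bases before to 50 bases after the start of transcription in the RefSeq annotation of GRCm38.p6 (the build mm10). Col4a1 (minus strand, chr8:11312777-11313076) and Col4a2 (plus strand, chr8:11312555-11312854) lie head to head and are a pair whose ratio was nearly the same in both groups. Col6a2 (minus strand, chr10:76623355-76623654, the downstream one of its 2 windows) and Col25a1 (plus strand, chr3:130180595-130180894) differed between the groups with many fragments. Col6a3 (minus strand, chr1:90843922-90844221) and Col3a1 (plus strand, chr1:45311288-45311587) are the members beyond 1.5-fold. Each is printed 5′ to 3′ on the strand of its gene, and capitals mark TATAAA (the letters of a TATA box), CCAAT (a box upstream of many genes) and GGGCGG (the core of the GC box) on either strand.
Col4a1: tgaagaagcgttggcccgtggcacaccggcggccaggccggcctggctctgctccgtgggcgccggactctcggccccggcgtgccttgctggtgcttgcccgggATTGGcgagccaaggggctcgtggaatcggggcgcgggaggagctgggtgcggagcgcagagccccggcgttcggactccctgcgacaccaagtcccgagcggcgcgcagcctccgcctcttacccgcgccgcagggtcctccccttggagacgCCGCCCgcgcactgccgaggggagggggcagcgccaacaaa
Col4a2: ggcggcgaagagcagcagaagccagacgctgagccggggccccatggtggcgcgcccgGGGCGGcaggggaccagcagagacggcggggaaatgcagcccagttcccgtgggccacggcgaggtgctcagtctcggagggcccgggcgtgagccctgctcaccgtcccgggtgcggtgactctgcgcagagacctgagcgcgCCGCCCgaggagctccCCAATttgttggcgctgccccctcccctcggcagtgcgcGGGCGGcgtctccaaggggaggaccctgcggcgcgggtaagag
Col6a2: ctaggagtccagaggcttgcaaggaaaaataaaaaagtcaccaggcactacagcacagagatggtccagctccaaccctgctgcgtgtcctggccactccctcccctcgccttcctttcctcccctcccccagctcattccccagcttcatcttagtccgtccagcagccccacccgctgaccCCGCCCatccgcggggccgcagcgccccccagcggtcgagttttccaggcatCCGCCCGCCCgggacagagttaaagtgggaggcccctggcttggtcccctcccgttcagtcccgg
Col25a1: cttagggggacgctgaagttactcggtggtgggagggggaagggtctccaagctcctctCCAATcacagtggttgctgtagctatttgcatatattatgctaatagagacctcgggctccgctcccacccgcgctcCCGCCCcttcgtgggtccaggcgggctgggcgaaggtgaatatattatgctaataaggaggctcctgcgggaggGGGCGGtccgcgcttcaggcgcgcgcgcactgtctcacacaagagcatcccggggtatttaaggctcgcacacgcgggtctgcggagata
Col6a3: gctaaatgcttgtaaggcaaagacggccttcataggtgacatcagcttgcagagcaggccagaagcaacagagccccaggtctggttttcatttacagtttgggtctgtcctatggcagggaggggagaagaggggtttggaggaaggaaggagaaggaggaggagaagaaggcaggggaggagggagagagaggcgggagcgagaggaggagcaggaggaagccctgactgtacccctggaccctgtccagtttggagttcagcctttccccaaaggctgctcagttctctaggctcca
Col3a1: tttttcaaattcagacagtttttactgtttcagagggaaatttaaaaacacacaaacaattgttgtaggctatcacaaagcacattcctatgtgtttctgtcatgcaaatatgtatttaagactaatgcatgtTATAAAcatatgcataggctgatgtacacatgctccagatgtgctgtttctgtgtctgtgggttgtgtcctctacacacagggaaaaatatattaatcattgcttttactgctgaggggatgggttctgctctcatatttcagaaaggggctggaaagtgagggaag

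The windows of Col4a1 and Col4a2 share 78 bases, and both are rich in G and C (74.0% and 73.7%). Col3a1 has the opposite composition, with 37.7% G and C and a TATAAA upstream of the start, and the window of Col6a3 (56.3% G and C) holds none of these letters. RefSeq windows were found for 35 of the 44 members (38 windows, since some genes have several starts). Their median G and C content was 59.8%, against 52.7% over all 32851 windows. GGGCGG was in 60.5% of the collagen windows and in 35.7% of all windows. The shares for CCAAT (34.2% and 37.4%) and TATAAA (13.2% and 13.6%) were close to those of all windows. A match of letters is a description of the window and does not show that a factor binds there.

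The first question was which collagen chains the mPFC expresses. The level ran over a wide range, and a few chains held a large part of the sum. Col6a1, a chain of the type VI beaded filament, was the highest with 38.5 RPKM in control and 38.4 RPKM in CUMS, which is 28.3% and 29.4% of the sum over all collagen chain genes. Col4a2 (15.9 and 14.9 RPKM) and Col4a1 (10.2 and 9.71 RPKM), the chains of the common basement membrane collagen, followed. These 3 chains stood in the same order in both groups, and each differed from the next by more than counting error.

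Below them came chains at similar levels whose order differed between the groups. In control mice this was Col25a1 at 8.02 RPKM, Col9a3 at 7.53 RPKM, Col1a2 at 5.79 RPKM and Col6a2 at 5.78 RPKM, of which only Col9a3 and Col1a2 differed as neighbors by more than counting error. In CUMS mice Col6a2 was first at 8.355 RPKM, before Col1a2 at 6.075 RPKM, Col25a1 at 5.81 RPKM, Col16a1 at 5.25 RPKM and Col9a3 at 5.185 RPKM. Here Col6a2 was above Col1a2 by more than counting error, while Col1a2, Col25a1, Col16a1 and Col9a3 were each not distinguishable from the next among them. In all, 9 members reached 5 RPKM in a group and 22 lay between 0.5 and 5 RPKM.

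**Figure D1:**
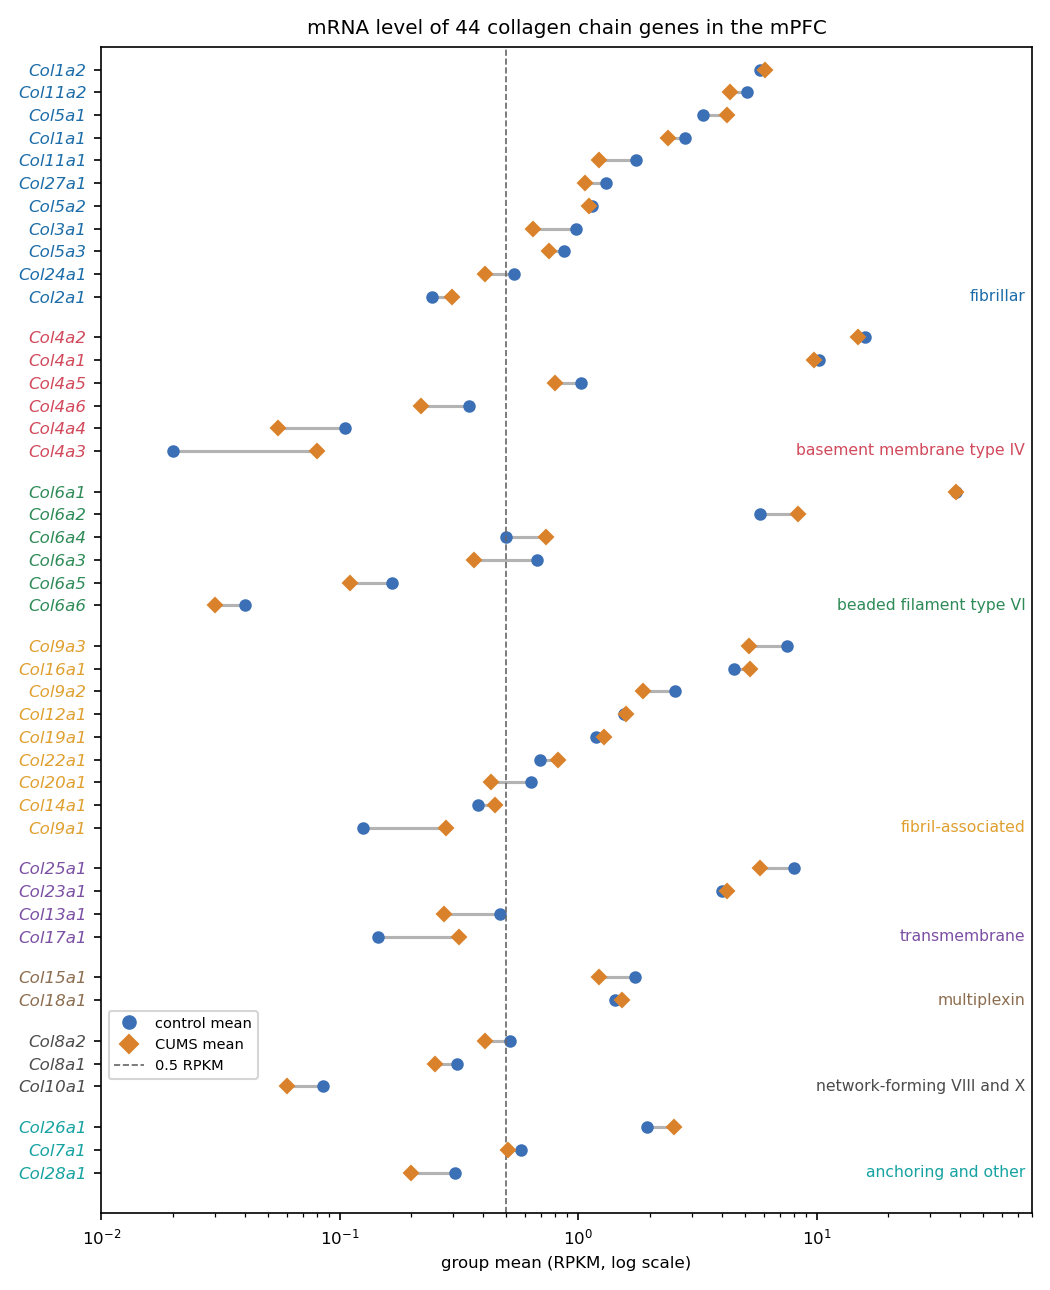
Group means of all 44 collagen chain genes in RPKM on a log axis, sorted by structural class and level, with a circle for the control mean, a diamond for the CUMS mean and a dashed line at 0.5 RPKM. Col6a1 is far to the right at 38.5 and 38.4 RPKM with symbols that cover each other, the next are Col4a2 and Col4a1, and 13 genes lie left of the line in both groups.

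The second question was which chains differed between CUMS and control mice. A member was called beyond the fold when its means differed by more than 1.5-fold and the larger was at least 0.5 RPKM. By this rule 0 of the 31 members were higher in CUMS, while 2.77% of the 14257 genes of that level were. For lower means in CUMS the count was 2 members (6.45%), Col6a3 and Col3a1, while 4.41% of all genes were lower beyond the fold. At this fold the members were thus near the share of all genes in the lower direction, and counts this small say little. With a pseudocount of 0.5 RPKM neither member was beyond the fold.

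A finer view was given by the counting intervals. The interval lay above 0 in 4 members (12.9%), and in 13.2% of all genes. It lay below 0 in 8 members (25.8%), and in 17.8% of all genes. The 4 were Col6a2, Col16a1, Col5a1 and Col6a4, and the 8 were Col25a1, Col9a3, Col11a2, Col9a2, Col11a1, Col15a1, Col3a1 and Col6a3. Such a share grows with the number of fragments, and collagen mRNAs are long, so that the 2 shares are not on equal terms. The counts also depend on the estimated depth, with 2 members above and 4 below 0 at 0.5 of that depth, and 5 above and 14 below at 2 times that depth. The share of all genes was not computed at these other depths, so that these counts cannot be read as particular to collagen.

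More members were lower than higher in CUMS. The mean was lower in 20 of the 31 members (64.5%) and higher in 11 (35.5%), against 53.2% and 46.6% of all genes. The median log2 ratio was -0.17 over the 31 members and -0.015 over the 14257 genes, and the members ran from -0.88 to 0.56. Among the 22 members between 0.5 and 5 RPKM the median was -0.22 (all genes of this level, -0.039), and among the 9 at 5 RPKM or more it was -0.077 (all genes, -0.008). The fragments of all collagen chain genes together gave a log2 ratio of -0.064 (interval -0.101 to -0.027), and their summed level went from 136 RPKM (control) to 131 RPKM (CUMS).

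**Figure D2:**
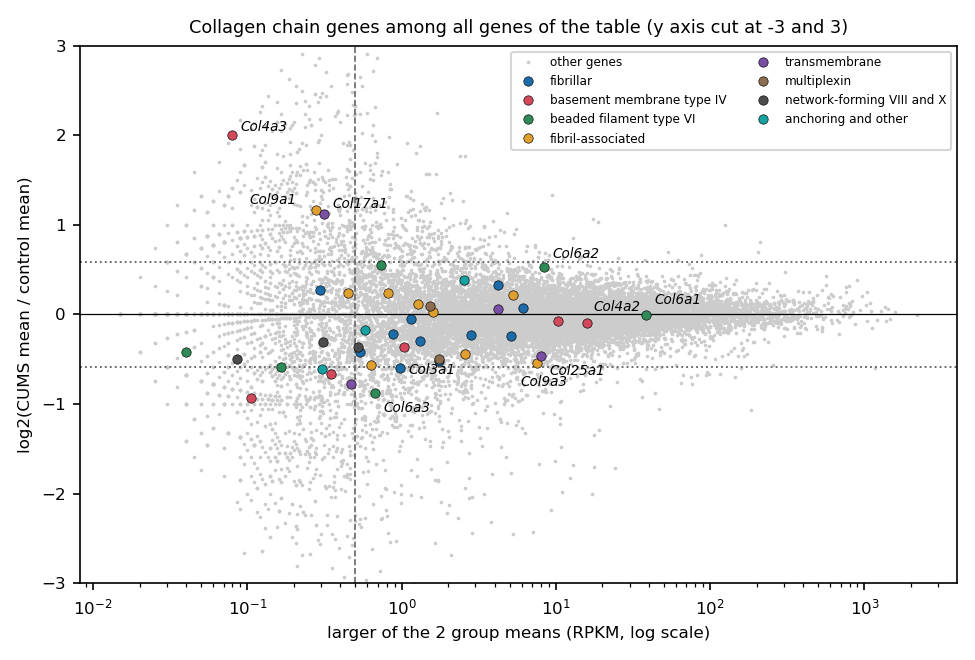
Log2 of CUMS mean divided by control mean against the larger of both means (RPKM, log axis) for every gene with no mean at 0, with collagen chain genes as colored circles by class and other genes in gray. Col6a1 and Col4a2 lie close to 0 at the right, Col6a2 lies above and Col25a1 and Col9a3 lie below 0 near 8 RPKM, and Col6a3 at -0.88 is the lowest member right of the dashed line at 0.5 RPKM.

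Type VI collagen held both the highest member and chains whose log2 ratios lay far apart. Col6a1, Col6a2 and Col6a3 encode the chains of the classical filament. Col6a1 had 38.5 RPKM in control and 38.4 RPKM in CUMS, a log2 ratio of 0.00 (interval -0.08 to 0.08), from 2492 and 2518 fragments. Col6a2 had 5.78 RPKM in control and 8.355 RPKM in CUMS, a log2 ratio of 0.53 (interval 0.33 to 0.73), from 350 and 511 fragments. Its interval was above 0 and its 1.45-fold difference was just short of the fold rule. Col6a3, the long chain that carries most of the globular domains, had 0.67 RPKM in control and 0.365 RPKM in CUMS, a log2 ratio of -0.88 (interval -1.37 to -0.37), from 99 and 55 fragments. With a fold of 1.84 this was the widest gap among the 31 members, at a low level.

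The 3 chains are thought to enter the filament in equal amounts, yet their mRNA levels per length were far from equal. Col6a1 was 6.65 times Col6a2 in control (interval 5.95 to 7.46) and 4.6 times in CUMS (interval 4.19 to 5.07). These intervals did not overlap. Col6a2 was 8.63 times Col6a3 in control (interval 6.83 to 10.8) and 22.9 times in CUMS (interval 17 to 30.3), again without overlap. Col6a4, which encodes a further chain related to that of Col6a3, went from 0.5 RPKM in control to 0.735 RPKM in CUMS, a log2 ratio of 0.56 (interval 0.08 to 1.05). Col6a5 and Col6a6, the other chains of this kind, were under 0.5 RPKM in both groups. The summed type VI fragments had a log2 ratio of 0.059 (interval -0.013 to 0.131), and most of these fragments were from Col6a1.

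Type IV collagen showed the opposite picture, a pair of chains that held together. Col4a1 and Col4a2 encode the chains of the network in nearly every basement membrane, including that of brain capillaries. Col4a1 had 10.2 RPKM in control and 9.71 RPKM in CUMS, a log2 ratio of -0.08 (interval -0.20 to 0.05). Col4a2 had 15.9 RPKM in control and 14.9 RPKM in CUMS, a log2 ratio of -0.10 (interval -0.20 to 0.00). The ratio of Col4a2 to Col4a1 was 1.55 in control (interval 1.44 to 1.67) and 1.53 in CUMS (interval 1.41 to 1.65), and these intervals overlapped almost wholly. As shown by the sequences above, both genes start from 1 short stretch of DNA in opposite directions, and their first exons share 22 bases. Reads in those bases could be given to either gene, which is 0.295% of the exon bases of Col4a1.

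The other type IV chains are those of kidney, lung and other special basement membranes, and they were low in the mPFC. Col4a5 had 1.03 RPKM in control and 0.8 RPKM in CUMS, a log2 ratio of -0.36 (interval -0.80 to 0.05). Its head-to-head neighbor on the X chromosome, Col4a6, had 0.35 and 0.22 RPKM. The last such pair, Col4a3 and Col4a4 on chromosome 1, rested on 3 and 11 fragments for Col4a3 and on 13 and 7 fragments for Col4a4, so that no direction could be read for either. All 3 type IV chains that reached 0.5 RPKM were lower in CUMS by their means, and the summed fragments of the 6 type IV chains had a log2 ratio of -0.104 (interval -0.179 to -0.028).

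**Figure D3:**
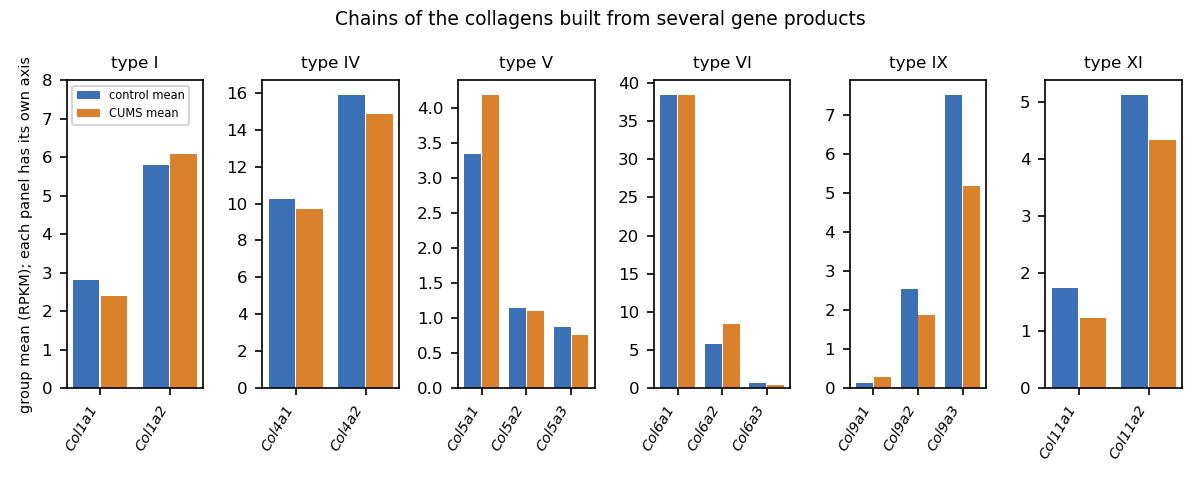
Group means (RPKM, linear axis from 0, a separate axis for each panel) of chains that build 1 collagen type, with blue bars for control and orange bars for CUMS and no error bars because the table holds group means only. Col4a1 and Col4a2 keep their proportion, while in type VI the bar of Col6a2 grows from 5.78 to 8.355 RPKM beside an even Col6a1.

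Fibrillar chains, the largest class with 11 members, mostly had a lower mean in CUMS. Of the 10 that reached 0.5 RPKM, 8 had a lower and 2 a higher mean in CUMS, with a median log2 ratio of -0.24. The interval included 0 in 6 of these 10. The summed fragments of the class had a log2 ratio of -0.071 (interval -0.154 to 0.012), which also included 0. Type I collagen is the main fibril of meninges and larger vessels. Col1a2 had 5.79 RPKM in control and 6.075 RPKM in CUMS, a log2 ratio of 0.07 (interval -0.11 to 0.25). Col1a1 had 2.81 RPKM in control and 2.39 RPKM in CUMS, a log2 ratio of -0.23 (interval -0.53 to 0.06). The chains of type I were thus not distinguishable between the groups at this depth. Col1a2 was 2.06 times Col1a1 in control (interval 1.76 to 2.44) and 2.54 times in CUMS (interval 2.15 to 3.03).

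Col3a1, the type III chain found with type I in soft tissue and vessel walls, had 0.975 RPKM in control and 0.645 RPKM in CUMS. Its log2 ratio of -0.60 (interval -1.11 to -0.12) rested on 89 and 59 fragments, and its fold of 1.51 was the one nearest above the fold rule. Just inside the rule on the other side were Col20a1, a chain on the surface of fibrils, at 1.48-fold (43 and 30 fragments) and Col6a4 at 1.47-fold. The call of Col3a1 was lost when CUMS was scaled to a median log2 ratio of 0 over all genes.

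Type V chains regulate the start and the width of type I fibrils. Col5a1 had 3.345 RPKM in control and 4.195 RPKM in CUMS, a log2 ratio of 0.33 (interval 0.15 to 0.51), from 462 and 586 fragments. It was the only fibrillar chain with an interval above 0. Its partner Col5a2 had 1.145 and 1.105 RPKM, a log2 ratio of -0.05 (interval -0.43 to 0.32). The third chain, Col5a3, had 0.875 and 0.755 RPKM, a log2 ratio of -0.21 (interval -0.68 to 0.25). The ratio of Col5a1 to Col5a2 was 2.92 in control (interval 2.4 to 3.6) and 3.8 in CUMS (interval 3.12 to 4.67), which overlapped.

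Type XI chains, best known from the thin fibrils of cartilage, were both lower. Col11a2 had 5.12 RPKM in control and 4.325 RPKM in CUMS, a log2 ratio of -0.24 (interval -0.44 to -0.05). Col11a1 had 1.745 RPKM in control and 1.22 RPKM in CUMS, a log2 ratio of -0.52 (interval -0.83 to -0.21). Their ratio was 2.93 in control (interval 2.48 to 3.46) and 3.55 in CUMS (interval 2.92 to 4.3), so that a shared difference and an unequal one could not be told apart. Among the remaining fibrillar chains, Col27a1 had 1.305 and 1.065 RPKM and Col24a1 had 0.54 and 0.405 RPKM, both with an interval that included 0. Col2a1, the main cartilage chain, was under 0.5 RPKM in both groups.

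Fibril-associated chains have a helix with breaks and lie on the surface of fibrils. This class was split, with 4 of 7 members higher and 3 lower in CUMS and a median log2 ratio of 0.03. Type IX chains were on the lower side. Col9a3 had 7.53 RPKM in control and 5.185 RPKM in CUMS, a log2 ratio of -0.54 (interval -0.78 to -0.30), from 346 and 241 fragments. Col9a2 had 2.555 RPKM in control and 1.875 RPKM in CUMS, a log2 ratio of -0.45 (interval -0.87 to -0.02). Col9a3 and Col9a2 thus had a ratio of 2.95 in control (interval 2.38 to 3.69) and 2.77 in CUMS (interval 2.15 to 3.59). Col9a1, the remaining chain of this type, had 8 fragments in control and 18 in CUMS, which is too few to read.

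For Col9a3, 234 exon bases (6.07% of its exons) overlap Tcfl5, a gene on the opposite strand that had 0.92 RPKM in control and 0.71 RPKM in CUMS. Since the use of strand in counting was not stated, reads from these bases cannot be told apart. Col16a1, whose product lies near fibrils of several tissues, had 4.5 RPKM in control and 5.25 RPKM in CUMS, a log2 ratio of 0.22 (interval 0.02 to 0.42). The other chains of this class showed small differences or few fragments. Col12a1 (1.555 and 1.585 RPKM), Col19a1 (1.185 and 1.28 RPKM) and Col22a1 (0.695 and 0.82 RPKM) each had an interval that included 0.

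**Figure D4:**
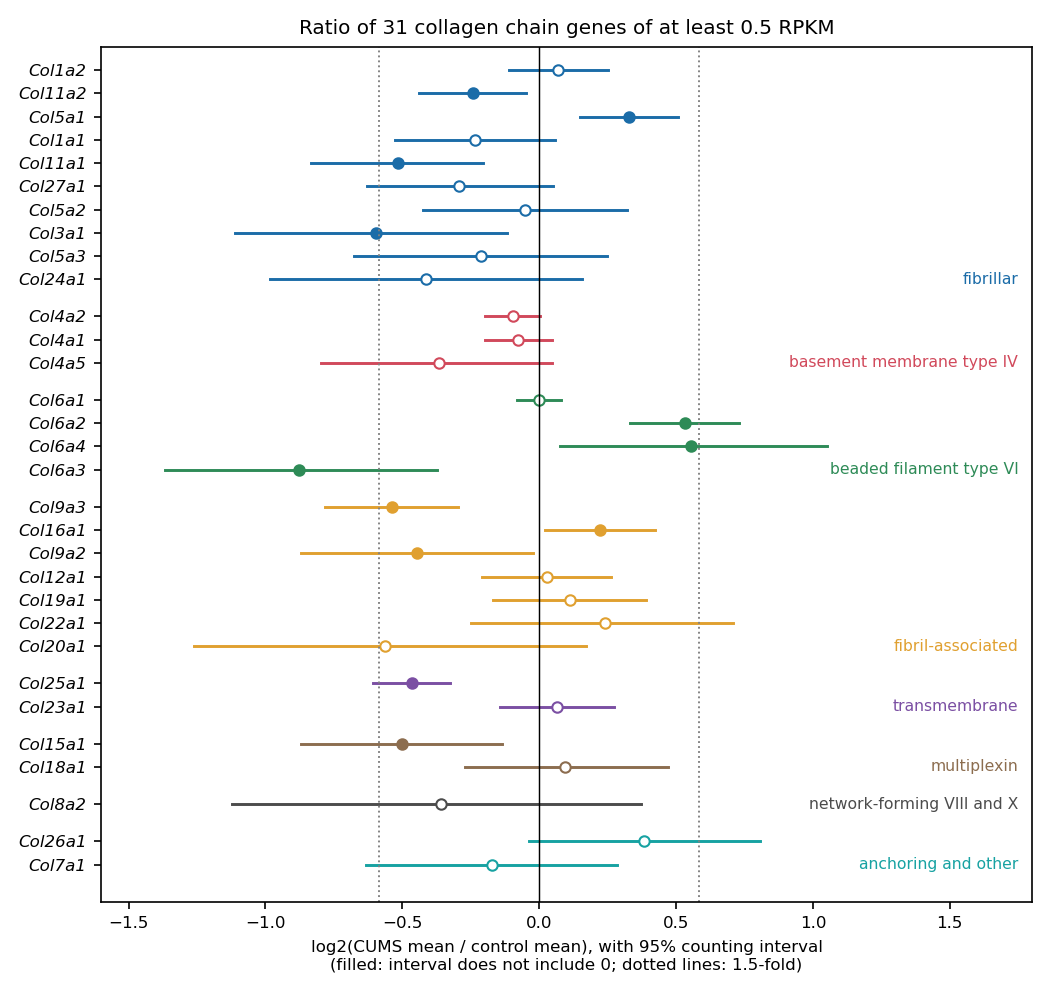
Log2 of CUMS mean divided by control mean for the 31 collagen chain genes of at least 0.5 RPKM, by class, with a bar for the 95% counting interval, filled circles where it does not include 0, and dotted lines at 1.5-fold. The filled circles are 4 to the right of 0 (Col5a1, Col6a2, Col6a4 and Col16a1) and 8 to the left, and Col6a3 and Col3a1 pass the left dotted line.

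Membrane-spanning collagens included the clearest lower chain by fragments. Col25a1 encodes a neuronal membrane collagen whose shed part was first found in amyloid plaques. It had 8.02 RPKM in control and 5.81 RPKM in CUMS, a log2 ratio of -0.47 (interval -0.61 to -0.32), from 960 and 703 fragments. Col23a1, of the same class, had 4.025 RPKM in control and 4.21 RPKM in CUMS, a log2 ratio of 0.06 (interval -0.14 to 0.27). The intervals of these membrane collagens did not overlap. Col13a1 was just under the level rule (0.47 and 0.275 RPKM). Col17a1, a chain of epithelial attachment sites, had 13 fragments in control and 28 in CUMS and stayed under 0.5 RPKM.

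Multiplexins are basement membrane collagens that carry sugar chains. Col15a1 had 1.735 RPKM in control and 1.225 RPKM in CUMS, a log2 ratio of -0.50 (interval -0.87 to -0.13). Col18a1, the source of the fragment endostatin, had 1.43 and 1.525 RPKM, a log2 ratio of 0.09 (interval -0.27 to 0.47), and the intervals of the multiplexins overlapped. Col26a1 had 1.945 RPKM in control and 2.535 RPKM in CUMS, a log2 ratio of 0.38 (interval -0.04 to 0.81). Col7a1, the anchoring fibril chain of skin, had 0.575 and 0.51 RPKM, and Col8a2, a chain of open networks such as that of the cornea, had 0.52 and 0.405 RPKM. Both intervals included 0.

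The 13 members under 0.5 RPKM had between 3 and 48 fragments in a group. Of these, 5 were higher and 8 lower in CUMS, and 7 differed by more than 1.5-fold. The only interval among them that did not include 0 was that of Col17a1 (log2 ratio 1.12, interval 0.09 to 2.16). Col10a1, the chain of growth plate cartilage, had 4 and 3 fragments.

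Neighbors in the genome differed in how alike they were. Col4a1 and Col4a2 had log2 ratios of -0.08 and -0.10. Col6a2 and Col6a1 lie in the same direction on chromosome 10 with a gap of 85161 bases, and had log2 ratios of 0.53 and 0.00. Col3a1 and Col5a2 lie tail to tail on chromosome 1 with a gap of 24624 bases, and had log2 ratios of -0.60 and -0.05. The 44 members lie on 15 chromosomes. Of them, 13 share exon bases with another annotated gene and 4 with a protein-coding one.

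The third question was what the genes around collagen did. Enzymes and chaperones that fold and modify collagen in the cell were mostly lower. Of 19 measured genes 15 were lower and 4 higher in CUMS, with a median log2 ratio of -0.14. Over all genes of at least 0.5 RPKM, 53.2% were lower. In the list 7 had an interval below and 3 above 0, against 17.8% and 13.2% of all genes. Many fragments narrow an interval, and that of P4hb (log2 ratio -0.15) rested on 2264 and 2064 fragments. Ppib and P4hb, the highest of the list, also serve many other proteins. Ppib, a prolyl isomerase, had 81.1 RPKM in control and 78.2 RPKM in CUMS, P4hb, a subunit of prolyl hydroxylase, had 55.5 and 50.0 RPKM, and Glt25d1, which adds galactose to collagen, had 24.5 and 27.0 RPKM. Serpinh1, the collagen chaperone HSP47, had 12.4 RPKM in control and 9.71 RPKM in CUMS, a log2 ratio of -0.35. Leprel1, a prolyl 3-hydroxylase, was the 1 gene beyond the fold, with 0.47 RPKM in control and 0.99 RPKM in CUMS.

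Genes of collagen trimming and cross-linking were mixed, with 4 of the 8 genes of at least 0.5 RPKM higher and 4 lower and a median log2 ratio of -0.06. Their highest member Bmp1, the procollagen C-proteinase, had 17.8 RPKM in both groups. Pcolce, which enhances that proteinase, had 4.28 RPKM in control and 5.7 RPKM in CUMS, and Adamts3, a procollagen N-proteinase, had 3.375 and 2.945 RPKM. Among receptors (4 of 6 higher, median 0.05) the highest was Ddr1, a collagen-activated kinase, with 28.3 RPKM in control and 23.0 RPKM in CUMS. Itgb1, the shared beta chain of collagen integrins, had 12.8 and 13.4 RPKM, and Mrc2, which takes up collagen for breakdown, had 1.78 and 2.45 RPKM. Genes of collagen breakdown and its inhibitors had 5 of 6 lower (median -0.19), with Timp2 at 131 and 114 RPKM, Timp3 at 25.1 and 23.9 RPKM and Timp4 at 17.6 and 13.5 RPKM. None of these genes passed the fold.

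Collagen-binding matrix proteins differed in both directions. Sparc, a glycoprotein that binds collagen and is made in glia and vessels, had 145 RPKM in control and 89.3 RPKM in CUMS, a log2 ratio of -0.70. Dcn, a small proteoglycan on fibrils, had 2.2 RPKM in control and 4.02 RPKM in CUMS, a log2 ratio of 0.87. Ogn, of the same family, had 0.955 and 1.73 RPKM, a log2 ratio of 0.86. Over the 9 genes of at least 0.5 RPKM the median was 0.19, with 5 higher and 4 lower, Fn1 at 14.5 and 11.2 RPKM and Bgn at 8.57 and 8.52 RPKM. The partners of type IV collagen in the basement membrane were even as a list, with 7 of 15 higher, 8 lower and a median of -0.005. Agrn had 38.4 and 38.3 RPKM, Lamb2 9.68 and 8.44 RPKM, and Lamc1 6.61 and 6.04 RPKM. Lama1, a laminin chain of the pia, was the 1 gene of this list beyond the fold (0.65 and 0.42 RPKM).

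**Figure D5:**
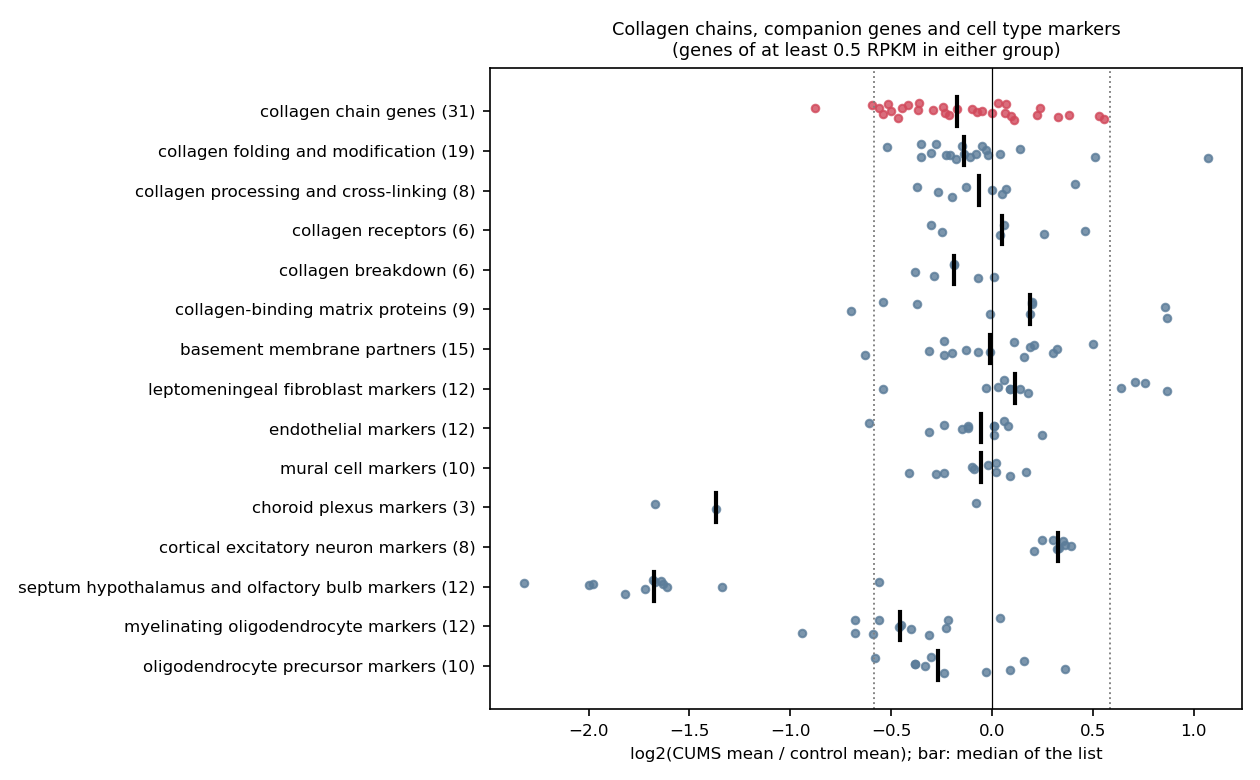
Log2 of CUMS mean divided by control mean for each gene of at least 0.5 RPKM (circles, shifted up or down at random to be visible) in the collagen chain genes, 6 lists of companion genes and 8 lists of cell type markers, with the number of genes in brackets a black bar at the median and dotted lines at 1.5-fold. Collagen chains and the folding list have medians of -0.17 and -0.14, while the marker lists of subcortical regions and of oligodendrocytes lie farther left. The list of subcortical regions was assembled with its lower values known. The oligodendrocyte lists were added after the data had been seen.

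Lists of cell markers were read beside the collagen chains, because fewer cells of a type and less RNA per cell cannot be told apart in whole tissue. Markers of leptomeningeal fibroblasts, the main source of fibrillar collagen at the brain surface, had 10 of 12 higher in CUMS (median log2 ratio 0.12, sum 62.3 and 68.1 RPKM). The 3 highest were Mgp (17.7 and 18.1 RPKM), Igf2 (13.3 and 13.0 RPKM) and Pdgfra (7.86 and 8.38 RPKM). Pdgfra is also in the list of oligodendrocyte precursors below, and Dcn and Lum are also in the list of collagen-binding proteins, so that these lists are not separate. Beyond the fold were Dcn, Aldh1a2 (1.98 and 3.35 RPKM), Slc22a6 (1.205 and 1.875 RPKM) and Slc47a1 (0.61 and 1.0 RPKM), all higher. The interval lay above 0 in 3 of the 12, against 13.2% of all genes, and included 0 in the other 9. Among these 9 was Slc47a1 (interval -0.03 to 1.47). Lum and Igf2 were lower, Lum with 0.69 RPKM in control and 0.475 RPKM in CUMS (log2 ratio -0.54, interval -1.56 to 0.44). Fibrillar chains had a median of -0.24 beside fibroblast markers with a median of 0.12. A link between these lists was not tested.

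Endothelial markers had 6 of 12 lower and 6 higher (median -0.05, sum 147 and 129 RPKM), with Ly6c1 at 41.6 and 37.5 RPKM, Cldn5, a tight junction protein, at 38.1 and 25.0 RPKM as the 1 beyond the fold, and Slco1c1 at 17.4 and 18.1 RPKM. Mural cell markers, of pericytes and smooth muscle, had 6 of 10 lower and 4 higher (median -0.05, sum 83.2 and 82.5 RPKM), with Vtn at 39.2 and 39.7 RPKM, Rgs5 at 12.1 and 13.7 RPKM and Pdgfrb at 8.46 and 7.96 RPKM. Every interval of these lists that did not include 0 lay below it. These were 3 of 12 endothelial genes (Cldn5, Pecam1 and Abcb1a) and 2 of 10 mural genes (Cspg4 and Acta2). Over all genes 17.8% of intervals lay below and 13.2% above 0. At 5 RPKM or more the median was -0.15 for endothelial and -0.04 for mural markers. Col4a1 and Col4a2 lay near the medians of -0.05. Choroid plexus markers were low (sum 5.13 and 3.19 RPKM), and 3 of the 7 that were measured reached 0.5 RPKM, namely Clic6 (3.225 and 1.245 RPKM), Kl (0.93 and 0.88 RPKM) and Otx2 (0.685 and 0.215 RPKM). Of its defining markers, Ttr was at 0.055 RPKM in control and at the value for 0 in CUMS, while Kcnj13 and Kcne2 were at the value for 0 in control and at 0.415 RPKM (9 fragments) and 0.145 RPKM (4 fragments) in CUMS. The 3 genes that reached 0.5 RPKM were thus lower in CUMS, Kl with an interval that included 0. The genes under this level went both ways on few fragments, so that no common direction was read for the whole list.

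Lists of neurons, other brain regions and oligodendrocytes also differed between the groups. Cortical excitatory neuron markers were higher in 8 of 8 genes (median 0.32, sum 1580 and 1900 RPKM), the highest being Camk2a, Slc17a7 and Tbr1. Markers of septum, hypothalamus and olfactory bulb, a list assembled with its lower values known, were lower in 12 of 12 genes (median -1.68, sum 127 and 41.4 RPKM). Of these, 11 were beyond the fold, led by Baiap3 (24.1 and 7.34 RPKM), Zic1 (17.5 and 6.92 RPKM) and Prkcd (17.2 and 4.3 RPKM) and with Dlk1, Nts, Agt, Th, Doc2g, Magel2, Calcr and Eomes as the others. Markers of myelinating oligodendrocytes were lower in 11 of 12 genes (median -0.46, sum 1980 and 1350 RPKM), with Mbp, Mobp, Cldn11 and Ermn beyond the fold, and those of oligodendrocyte precursors in 7 of 10 (median -0.27, sum 166 and 137 RPKM). The 8 collagen chain genes with an interval below 0 were lower beside these regional and oligodendrocyte lists. The same holds for any gene with a lower mean in CUMS, and a comparison of group means cannot show whether genes vary together. The part of these lists in the collagen values was not tested.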

How the data were processed

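Libraries of poly(A) mRNA were read from both ends on an Illumina HiSeq. According to the methods of the study and the submitters' processing notes, the authors trimmed reads with SolexaQA and aligned them to mm10 with TopHat 1.0.12 and Bowtie 0.11.3, and counted reads that aligned uniquely to genes. Which annotation was counted, and whether strand was used, is not given in the sources used here. The deposited values were RPKM, averaged by the authors over the libraries of a group, so 1 mean per group was available. A mean of 0 was listed as 0.01. The deposited log2 ratio of the means and the deposited NOISeq probability score hold the authors' own comparison and were not used.

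The depth was estimated because the table gives no read numbers. The product of RPKM and gene length grows by a constant step with each fragment. Genes under 2000 bases with a product under 1000 were fitted with steps between 20 and 200 and with a length offset up to 150 bases. Means listed at 0.01 were left out of this fit. The steps were 60.5 in control and 59.8 in CUMS with an offset of 70 bases, and 87.3% and 86.2% of the values used were whole multiples of the step (tolerance 0.15 steps), against 31.1% and 30.2% after lengths were shuffled. The depth is lower than the read numbers the study gives, which was not resolved. The floor was 3 fragments.

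Members and gene lists were chosen with earlier results of these data known. The lists of oligodendrocytes and their precursors were added after the data had been seen. Lists gave 19 folding genes under current or older symbols. Named were the 10 highest members, members beyond 1.5-fold, chains of collagens built from several chains with at least 0.5 RPKM, members at 0, and in each list the 3 highest genes and those beyond 1.5-fold. Other members and genes given were chosen after their values were seen. Gene spans and promoters came from RefSeq (GRCm38.p6), with 44 of 44 members matched by gene identifier, and exon overlaps from GENCODE M21. Python 3.11.15, pandas 2.3.3, numpy 2.4.6, scipy 1.17.1 and matplotlib 3.10.9 were used. Alternatives changed the level rule, the fold, a pseudocount and the scaling. No test, set test or resampling was made.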

Additional observations from a re-analysis of the deposited data

How the results depend on the processing

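The count of members lower in CUMS beyond the fold (2) was 6 with no level rule, 0 at 5 RPKM or more, 1 with a pseudocount of 0.1 RPKM, 0 with 0.5 RPKM, 1 after a shift of CUMS by 0.0151 on the log2 scale that set the median of all genes to 0, and 0 at a fold of 2. The count of higher members (0) was 3 with no level rule. Counting intervals depend on the estimated depth, an alternative chosen after seeing the data. At 0.5 of that depth 2 members had an interval above and 4 below 0, and at 2 times that depth 5 had one above and 14 one below 0. The share of all genes was not computed at these depths. With a pseudocount of 0.5 RPKM the median of the septum, hypothalamus and olfactory bulb markers was -1.532. The 84 alternative values of the 21 named members lay within their counting intervals, but those of low members shrank with a pseudocount of 0.5 RPKM, to -0.436 for Col6a3, -0.365 for Col3a1 and -0.173 for Col8a2. The median of the collagen chain genes stayed negative in every alternative run (-0.223 to -0.077). The medians of small lists were less firm, and 8 of their alternative values had another sign, among them type VI with no level rule (-0.209) and fibril-associated chains at 5 RPKM or more (-0.158). The median of choroid plexus markers (-1.373) was -0.080 with no level rule and -0.729 with a pseudocount of 0.5 RPKM. No paired analysis was possible because each group is given as 1 mean, and for the same reason no replicate could be left out.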

Other observations

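Proteins with a collagen-like helix outside the collagen chain names were read as a further list, chosen after the collagen values had been seen. Of 27 such genes with a value, 18 reached 0.5 RPKM, with 9 higher and 9 lower in CUMS and a median log2 ratio of -0.001. The complement C1q chains, which microglia make and which assemble into 1 molecule, were even, with C1qa at 43.9 RPKM in control and 44.8 RPKM in CUMS, C1qb at 43.8 and 42.5 RPKM and C1qc at 41.2 and 40.0 RPKM. Their synaptic relatives differed from one to the next. C1ql1 had 8.97 RPKM in control and 8.78 RPKM in CUMS, a log2 ratio of -0.03. C1ql3 had 49.7 RPKM in control and 73.3 RPKM in CUMS, a log2 ratio of 0.56, and C1ql2 had 1.15 and 0.45 RPKM, a log2 ratio of -1.35. C1qtnf4, the highest of the list, had 119 and 141 RPKM, a log2 ratio of 0.24.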
